A study of Mus musculus with 30 samples.

Results

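The proteasome subunit genes of mouse interneuron libraries are described here by their level in every sample and by group. The members were the rows of the expression table whose symbol begins with Psma, Psmb, Psmc, Psmd or Psme followed by a digit and holds no hyphen, which gave 45 of the 23993 genes. The libraries were made from tdTomato-tagged cells sorted from the mPFC of C57BL/6 mice in which Sst Cre or Pvalb Cre switches on the Ai9 reporter, so a cell is tagged if it ever expressed the Cre. The 24 libraries came from control Sst females (7), control Sst males (7), Sst males after 14 days of CUS (chronic unpredictable stress, 3) and control Pvalb males (7). All mice carry a Cre and the reporter, the controls were not stressed, and the sample labels give neither age nor whether a library is 1 mouse or a pool, so the p-values measure the spread between these samples, which may be technical. A further 6 libraries in the labels were not analysed here.

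Several libraries stood apart from their labels or from each other. The male Sst libraries SST0-M and SST1-M differed by an SD of 0.0212 in their log2 ratio over genes and the Pvalb libraries PV0-M and PV2-M by 0.0170, far below the next closest pairs (0.267 and 0.225). Each pair was averaged and counted as 1 sample, which left 22 samples. The averaged male Sst pair had the highest or the lowest value of all samples in 26 of the 45 members, against 41.3% of 14566 expressed genes. Titles were of 2 kinds. The 3 CUS samples and 3 of the male Sst controls had titles that read like a date and are called dated, and the other 16 samples, SST-F included, are called numbered. Small nucleolar and Cajal body RNA genes held 53.5% to 75.7% of the summed level in the dated samples and 1.87% to 8.29% in the numbered ones. In 3 Pvalb libraries labelled male (PV1-M, PV4-M and PV5-M) Xist stood at 300 to 333 FPKM, while it was at most 6.64 FPKM in the other Pvalb samples. The 12 microglia markers summed to between 3659 and 10884 FPKM per sample and the 10 interneuron markers to between 3.20 and 69.9, with Gad1 at most 2.05 FPKM and 8 of the 10, Sst, Pvalb and Gad1 among them, at 0 in some sample, so the interneuron label was not borne out by its defining markers and the libraries are named by their label only. In such sorted mixtures fewer cells of a type and less RNA per cell cannot be told apart.

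The proteasome is the barrel-shaped protease that degrades proteins tagged with ubiquitin. Its 20S core holds outer rings of alpha subunits (Psma genes), which gate the barrel, and inner rings of beta subunits (Psmb genes), of which the products of Psmb5, Psmb6 and Psmb7 carry the constitutive active sites. Interferon-induced and hematopoietic cells replace them with the immunosubunits Psmb8, Psmb9 and Psmb10, respectively, which favors cleavage into peptides for MHC class I, and microglia are known as the main immunoproteasome-bearing cells of the brain. The 19S cap binds, unfolds and feeds substrates through a ring of ATPases (Psmc genes) and a base and lid of non-ATPase subunits (Psmd genes), while Psme1 to Psme4 encode activators that cap the core without ubiquitin.

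Promoter letters are shown for the catalytic genes whose window held a searched motif (Psmb5, Psmb6 and Psmb8) and for Psmc6, which differed between cell types. RefSeq windows of GRCm38.p6 were matched for 38 of the 45 members (41 windows), and the 250 bases before the start site were searched on both strands for an antioxidant-response element, the site read by the NRF1 and NRF2 factors (TGACNNNGC), an interferon-gamma activated site (TTCNNNGAA) and an interferon-stimulated core (GAAANNGAA). The match is in capitals with up to 40 bases on either side, 5′ to 3′ on the gene's strand.
Psmb8 (chr17:34198058-34198146, + strand): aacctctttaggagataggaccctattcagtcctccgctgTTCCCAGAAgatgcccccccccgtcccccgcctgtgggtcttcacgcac
Psmb5 (chr14:54617996-54618082, - strand): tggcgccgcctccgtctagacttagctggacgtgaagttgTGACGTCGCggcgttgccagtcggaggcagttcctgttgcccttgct
Psmb6 (chr11:70525308-70525356, + strand): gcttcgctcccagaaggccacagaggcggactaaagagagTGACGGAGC
Psmc6 (chr14:45329574-45329645, + strand): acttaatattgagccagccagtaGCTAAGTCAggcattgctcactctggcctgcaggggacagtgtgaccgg
The activated site lay in 1 member window, that of Psmb8, and in 7.02% of all 32851 windows. The antioxidant-response letters lay in 5 member windows (Psmb5, Psmb6, Psmc6, Psmd9 and Psmd12) and in 10.2% of all windows, and the interferon-stimulated core lay in 3 (Psmb3, Psmd4 and Psmd9) and in 7.13% of all. The Psmb6 window precedes a start site inside the annotated gene (chr11:70525324-70527858), so its match lies within the gene. A match describes letters and not a bound site.

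Levels are in FPKM, fragments scaled for gene length and library size, and are compared between genes on that per-length scale. The highest means were those of the activator genes Psme1 and Psme2 and the core gene Psma4, with the 19S gene Psmc5 next. Psme1, the alpha subunit of the interferon-inducible activator, had the highest mean of all members, 94.6 FPKM, and ranged from 46.5 FPKM in SST1-F to 189 FPKM in the averaged male Sst pair. Among the alpha genes the mean level over samples ran from 18.9 FPKM for Psma1 to 59.7 FPKM for Psma4. The constitutive beta genes had means between 23.1 FPKM for Psmb1 and 37.2 FPKM for Psmb7. In the 19S cap, the ATPase genes lay between 19.7 FPKM for Psmc6 and 42.2 FPKM for Psmc5, and the non-ATPase genes between 12.7 FPKM for Psmd3, a lid subunit, and 41.3 FPKM for Psmd4, a ubiquitin receptor.

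The assembly chaperones, the tissue-restricted subunits and the 1 member that is no subunit were low. The chaperones that assemble the 19S base, Psmd5, Psmd9 and Psmd10, had means of 7.04, 4.11 and 4.54 FPKM. Psma8, the alpha subunit of the testis, had a mean of 1.45 FPKM, and Psmb11, the beta subunit of the thymic cortex, one of 0.717 FPKM. Neither is a subunit that brain cells are known for. Psmc3ip, whose product is a recombination factor and no proteasome subunit although its symbol meets the rule, had a mean of 1.74 FPKM. All 45 members passed the filter on low values in each comparison, since none had a mean of 0.4 FPKM or less in the samples used. The summed level of the 44 other members had a median of 1113 FPKM in female Sst controls, 1108 FPKM in dated male controls, 1113 FPKM after CUS and 1106 FPKM in Pvalb males. Of the 3 numbered male controls it was 1092, 1391 and 1949 FPKM, the last in the averaged pair.

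**Figure D1:**
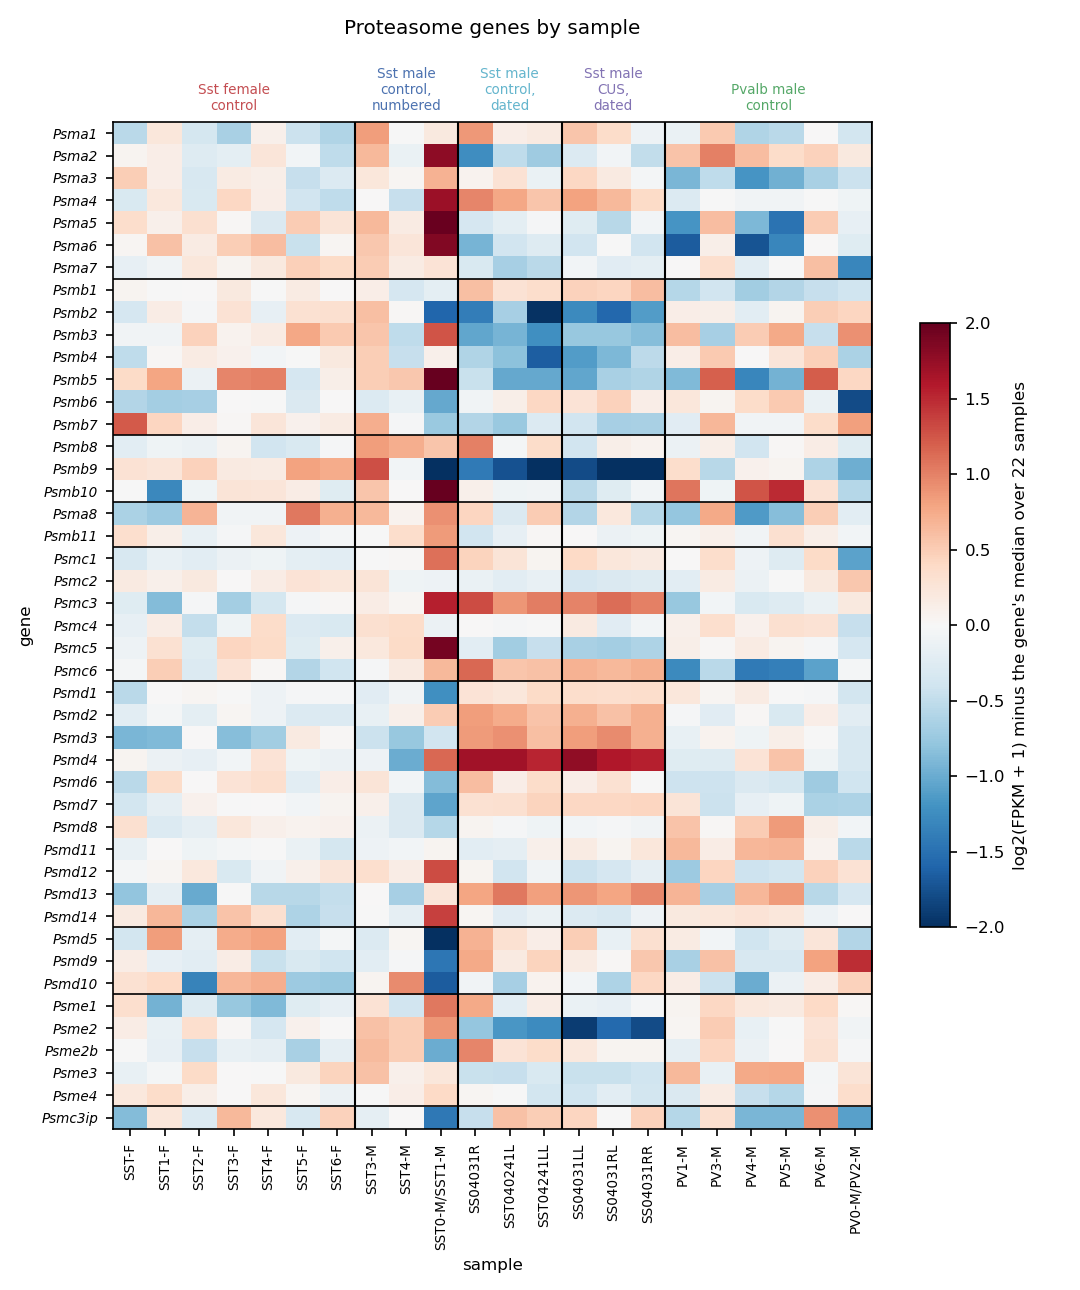
Heat map of the 45 members (rows, by role) in the 22 samples (columns, by group). Color gives log2(FPKM + 1) minus the gene's median over the 22 samples, from -2 (blue) to 2 (red). The 6 dated samples share high Psmd4 and low Psmb9, and many of the darkest cells belong to the averaged pair SST0-M/SST1-M.

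Members varied among samples as much as other genes did. The median SD of log2(FPKM + 1) over the 22 samples was 0.55 for the members and 0.56 for 14566 expressed genes. Psmc2 and Psmc4, both ATPases, were the steadiest well-expressed members, with highest over lowest values of 1.86 and 1.83. Psmb9 varied most on the log2 scale, with an SD of 1.11 and values from 3.18 to 49.2 FPKM. Psmb5, which carries the chymotrypsin-like site, ranged from 7.71 FPKM in PV4-M to 93.2 FPKM in the averaged male pair.

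Unlabelled structure within groups carried part of this spread. Within the female Sst controls, SST1-F, SST3-F and SST4-F resembled each other, as did SST2-F, SST5-F and SST6-F (SD over genes of the log2 ratio 0.218 to 0.263 within these sets and 0.413 to 0.466 between them). These sets of 3 did not overlap in 26 of the 45 members, against 50.0% of 14377 genes. Psmd3 stood at 5.90, 6.05 and 6.81 FPKM in the former and at 11.8, 13.4 and 11.9 FPKM in the latter. Psmd14, the deubiquitinase of the lid, went the other way, with 36.6, 34.3 and 28.9 FPKM against 14.4, 14.6 and 16.4 FPKM. Within the Pvalb samples, the 3 libraries with high Xist did not overlap the other 3 samples in 22 of the 45 members, against 43.0% of 14146 genes. Psma6 was at 11.8, 11.3 and 15.4 FPKM in the high-Xist libraries and at 42.8, 40.0 and 33.5 FPKM in the others. Both shares were near those of all genes, and the labels do not name either split.

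The immunosubunits were expressed in every sample. Over the 22 samples the median ratio of each to the constitutive subunit it replaces was 0.831 for Psmb8:Psmb5, 0.705 for Psmb9:Psmb6 and 0.293 for Psmb10:Psmb7. As a share of the summed FPKM of the 6 catalytic genes they held 23.1% to 46.4%, with group medians of 33.0% in female Sst controls, 38.8% in numbered and 33.7% in dated male Sst controls, 28.8% after CUS and 35.0% in Pvalb males. The CUS samples (25.6% to 32.0%) did not overlap the numbered male controls (36.3% to 46.3%), from which they also differ in kind of title, but they did overlap the dated controls (31.3% to 44.5%). Psmb8 and Psmb9 lie beside the peptide transporter genes Tap1 and Tap2 on chromosome 17 (Psmb9 at chr17:34182030-34187330 and Psmb8 at chr17:34198195-34201454 of GRCm38.p6), whereas Psmb10 lies at chr8:105935728-105938392.

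Psmb8, the immuno form of Psmb5, was at 11.9 to 16.4 FPKM in the 7 female Sst controls (median 14.5). It was at 28.9, 26.7 and 23.7 FPKM in the numbered male controls, at 32.6, 15.3 and 20.6 FPKM in the dated male controls, at 11.9, 17.2 and 16.6 FPKM after CUS and at 11.9 to 17.6 FPKM in the Pvalb males (median 15.3). The numbered males lay above every female, whereas the dated males overlapped them. Psmb9, the immuno form of Psmb6, was at 22.2 to 35.1 FPKM in the females (median 24.1), at 49.2, 18.9 and 4.20 FPKM in the numbered males and at 9.49 to 25.4 FPKM in the Pvalb males (median 16.7). In the dated samples it was at 6.77, 5.15 and 3.54 FPKM in controls and 4.95, 3.18 and 4.0 FPKM after CUS, so the dated samples were low with or without stress, and the averaged pair at 4.20 FPKM was the only numbered sample among them. Psmb10, the immuno form of Psmb7, was at 3.39 to 11.8 FPKM in females, 14.7, 9.73 and 43.6 FPKM in numbered males, 9.05 to 10.5 FPKM in dated male controls, 6.32 to 9.34 FPKM after CUS and 6.20 to 29.2 FPKM in Pvalb males. Its values above 15 FPKM were those of the averaged male pair and the 3 high-Xist Pvalb libraries.

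**Figure D2:**
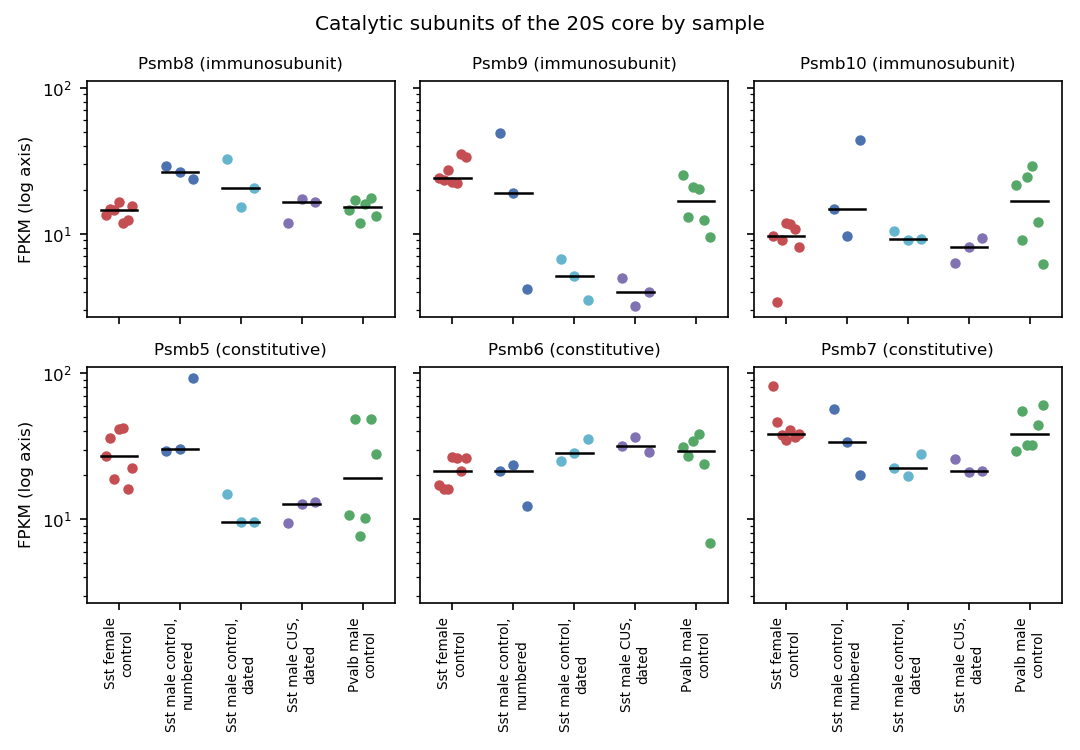
FPKM (log axis) of the 3 immunosubunits (top) and the constitutive subunits they replace (bottom) in each sample, by group. Points are samples and bars are group medians. Psmb9 lies between 3.18 and 6.77 FPKM in the 6 dated samples and Psmb5 between 9.47 and 14.8 FPKM.

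The balance of each immunosubunit to its constitutive partner was taken as the log2 ratio of their FPKM. None of 12 tests (3 pairs in 4 comparisons, two-sided exact permutation, Benjamini-Hochberg adjusted over the 12) passed 0.05, and the lowest adjusted p was 0.260. In females the Psmb9:Psmb6 ratio was at 0.848 to 1.70 and in Pvalb males at 0.479 to 1.37. The difference between numbered Sst and Pvalb samples was 0.75 on the log2 scale (means 0.17 ± 0.78, SD, n = 10, and -0.58 ± 0.58, n = 6, exact permutation p = 0.0646, adjusted p = 0.260). Without the averaged male pair the same difference was 0.94 and without the Pvalb pair 0.96. The exact permutation p was 0.00879 and 0.0280 before adjustment. Over all alternative settings 9 ratio results passed an unadjusted 0.05 and 156 did not.

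After CUS the Psmb8:Psmb5 ratio was 1.25, 1.35 and 1.26 and in the dated controls it was 2.20, 1.59 and 2.15. Every CUS sample lay below every control. The difference was -0.61 on the log2 scale, and its exact permutation p of 0.1 is the smallest that 3 against 3 samples allow, so the design could not reach the threshold. Between kinds of titles among male Sst controls the ratios moved in opposite directions. Psmb8:Psmb5 was 1.69 higher in the dated samples and Psmb9:Psmb6 differed by -2.33, both without overlap and both at that smallest p of 0.1. Psmb10:Psmb7 overlapped, with a difference of -0.41.

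**Figure D3:**
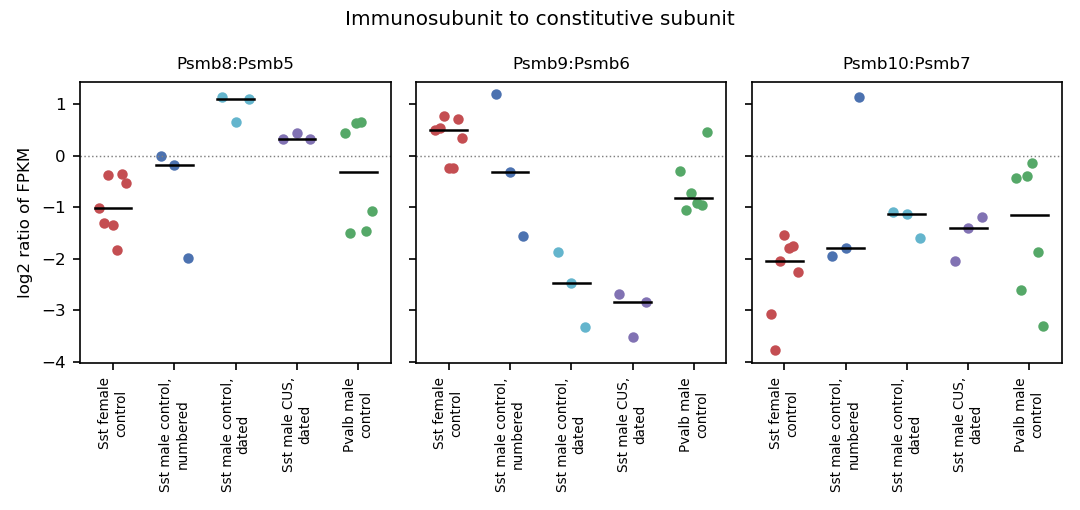
Log2 ratio of the FPKM of each immunosubunit to its constitutive partner in each sample, by group. Points are samples, bars are group medians and the dotted line marks equal FPKM. The Psmb8:Psmb5 ratio lies above that line in the 6 dated samples while Psmb9:Psmb6 lies below it in all 6.

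Sex was compared in control Sst mice with 7 females and the 3 numbered males. Log2 fold changes are on the log2(FPKM + 1) scale, which understates changes of low genes, and calls use limma with an adjusted p under 0.05 over all genes tested. Psmb8 was the only member called and was lower in females, at 14.1 ± 1.60 FPKM (SD, n = 7) against 26.4 ± 2.64 FPKM (n = 3), a fall by 0.86 on the log2 scale (SE 0.16, limma adjusted p = 0.0191), with no overlap between the sexes. The call is 1 of 45 members (2.22%) beside 3.41% of 14443 genes called in either direction and 1.66% called lower in females. Psmb8 lost the call without SST2-F, SST5-F or SST3-M, with limma adjusted p of 0.0504, 0.0527 and 0.0734, after quantile normalization (0.0513) and when scaled to a total without small nucleolar RNA (0.0873), and kept its direction in each. Without the averaged male pair it was called together with Psme2b, 2 of 45 members beside 6.22% of genes.

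Over all 45 members, Psmb8 included, the median log2 fold change was -0.30, that of all genes tested was 0.05, and 30 of the 45 were below 0. The median was -0.15 without the averaged male pair, -0.14 without SST3-M and -0.08 with all males. Scaling to a total without small nucleolar RNA moved both medians up, to -0.06 and 0.25, with 23 of the 45 below 0. All 7 alpha genes were below 0 (-0.85 for Psma2 to -0.15 for Psma7), or 6 of 7 with that scaling or quantile normalization. Psme2, the beta subunit of the interferon-inducible activator, was at 52.6 ± 7.83 FPKM in females and 82.1 ± 12.2 FPKM in numbered males, without overlap (log2 fold change -0.64, limma adjusted p = 0.0624). All 5 activators were below 0, or 3 of 5 with that scaling. Psme1 was at 70.6 ± 23.9 and 123 ± 60.8 FPKM (adjusted p = 0.197), Psme3 at 21.6 ± 3.66 and 24.7 ± 4.67 FPKM and Psme4 at 19.9 ± 2.35 and 20.8 ± 3.18 FPKM. Psmb10 had a larger log2 fold change than Psmb8, -1.01, but an SE of 0.43 and an adjusted p of 0.176, and its male mean of 22.7 FPKM held an SD of 18.3. Psmb5 (-0.65), Psmb6 (0.17), Psmb7 (0.34) and Psmb9 (0.67) were not called. By role the median log2 fold change was -0.66 for the alpha genes, 0.17 for the constitutive beta genes, -0.45 for the ATPases, -0.05 for the non-ATPase genes and 0.39 for the assembly chaperones. Endothelial markers (2 of 6) and oligodendrocyte markers (1 of 6) were called higher in females. Among microglia markers 5 of 12 were called lower in females and 1 higher (summed level 3659 to 6802 FPKM in females and 5817 to 9415 FPKM in numbered males), and the part of these cells in the result for Psmb8 was not tested.

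The male samples chosen decided the count. With all 6 male samples, 5 members were called, all lower in females (Psma1, Psmb8, Psmc3, Psmd2 and Psmd13), beside 11.7% of 14498 genes. With the 3 dated males alone, 28 members were called, 13 higher and 15 lower in females, beside 41.5% of 14532 genes. Psmb5, Psme2 and Psme3 were then higher in females (log2 fold changes 1.23, 1.08 and 0.52), opposite to the sign they had against the numbered males. Psmb8 was lower in females with every choice of males.

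CUS was compared in males between the 3 CUS samples and the 3 dated controls. The titles of the CUS samples and of the control SS04031R begin with SS04031, whereas the other controls are SST040241L and SST04241LL. Control SS04031R differed from these by an SD of 0.656 and 0.635 in the log2 ratio over genes, against 0.267 between them. Stress and the beginning of the title therefore partly coincide and cannot be fully told apart. No member passed (limma, 0 of 45, beside 0.00705% of 14186 genes, that is 1 gene). At an unadjusted p under 0.05 there were 3 members, beside 6.74% of genes. Psme2 was at 13.0, 16.9 and 14.2 FPKM after CUS and at 29.5, 22.5 and 20.9 FPKM in controls, so the groups did not overlap (log2 fold change -0.68, SE 0.17, limma adjusted p = 0.647). Psma2, a core alpha subunit, was at 21.4, 24.9 and 18.2 FPKM after CUS against 10.4, 17.9 and 15.5 FPKM (0.55, SE 0.22), and Psma7, another, at 33.6, 29.7 and 30.6 FPKM against 28.1, 21.8 and 23.9 FPKM (0.34, SE 0.14), both without overlap and with the same adjusted p.

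Immunosubunits and activators lay below their control means after CUS, though none was called. Psmb8 was at 15.2 ± 2.91 FPKM against 22.8 ± 8.87 FPKM (SD, n = 3 each), Psmb9 at 4.05 ± 0.888 against 5.15 ± 1.62 FPKM and Psmb10 at 7.91 ± 1.52 against 9.58 ± 0.770 FPKM. Psme1 stood at 83.8 ± 4.38 and 110 ± 38.6 FPKM. The control SS04031R held the highest level of Psmb8, Psmb9, Psmb10, Psme1, Psme2 and Psme2b among the dated samples, and its microglia markers summed to 10884 FPKM against 3852 to 5392 FPKM in the other 5. The markers of oligodendrocytes (1600 to 1967 against 391 to 1284 FPKM), endothelial cells (127 to 203 against 18.3 to 111 FPKM) and macrophages and blood (447 to 529 against 89.1 to 266 FPKM) summed higher after CUS without overlap, although none of these markers was called. The part of any of these cells in the CUS values was not tested. The constitutive genes were nearly level, with log2 fold changes of 0.07 for Psmb5, 0.13 for Psmb6 and -0.02 for Psmb7, as were the activators Psme3 (-0.03) and, less so, Psme4 (-0.21). Over all members the median was -0.03 and that of all genes 0.00.

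Against the 3 numbered male controls instead, which differ from the CUS samples in kind of title as well, 4 members were called, Psmd3 and Psmd13 higher and Psmb5 and Psme2 lower, beside 16.1% of 14326 genes. Psmd3, Psmd13 and Psmb5 overlapped between CUS and dated controls, whereas Psme2 did not. Psmd3, for example, was at 21.6, 23.5 and 19.7 FPKM after CUS, 21.9, 23 and 18.3 FPKM in dated controls and 8.46, 6.51 and 8.79 FPKM in numbered controls.

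**Figure D4:**
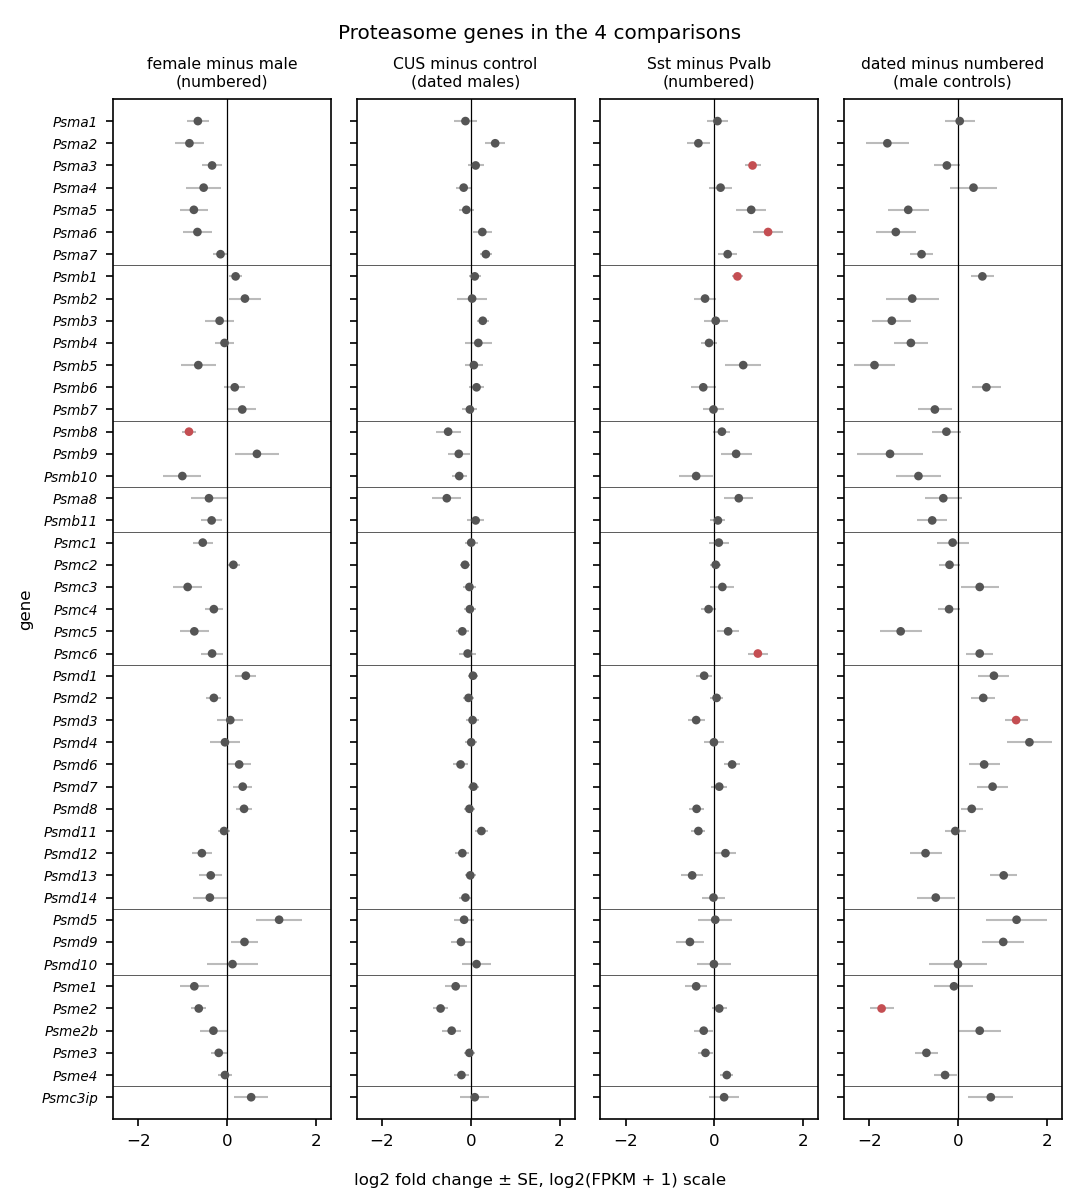
Log2 fold change ± SE of each of the 45 members in the 4 comparisons, on the log2(FPKM + 1) scale, with rows by role. Red points passed limma's adjusted p under 0.05 and grey points did not. The red points are 1, 0, 4 and 2 from left to right, and the spread is narrowest for CUS.

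Cell type was compared between 10 numbered Sst controls of both sexes and the 6 Pvalb males. Of the 45 members 4 were called (8.89%), all higher in Sst. Of all 14483 genes 10.2% were called in either direction and 4.87% were called higher in Sst. The 4 members were 2 of 7 alpha genes, 1 of 7 constitutive beta genes and 1 of 6 ATPase genes. Psma6 had the largest difference, at 58.3 ± 32.3 FPKM (SD, n = 10) in Sst and 25.8 ± 14.6 FPKM (n = 6) in Pvalb (log2 fold change 1.21, SE 0.33, limma adjusted p = 0.0268). Psmc6, an ATPase, was at 19.1 ± 5.37 and 9.50 ± 4.52 FPKM (0.98, SE 0.22, adjusted p = 0.0122) and Psma3 at 40.5 ± 10.5 and 21.7 ± 4.54 FPKM (0.86, SE 0.18, adjusted p = 0.00856). Psmb1, a beta subunit without an active site, was at 22.6 ± 2.54 and 15.5 ± 1.40 FPKM (0.52, SE 0.12, adjusted p = 0.0113). Psmb1 was the only one of them whose groups did not overlap, at 17.6 to 26.0 FPKM in Sst and 13.5 to 17.1 FPKM in Pvalb.

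Each call depended on which Pvalb libraries were used. Without the 3 high-Xist libraries no member was called (limma, adjusted p 0.255 to 0.566 for the 4 genes), beside 0.0622% of 14467 genes, 4 members had an unadjusted p under 0.05, and the log2 fold change was 0.45 for Psma6, 0.58 for Psmc6, 0.61 for Psma3 and 0.41 for Psmb1. Without both averaged pairs 12 members were called, 6 higher and 6 lower in Sst, beside 30.6% of 14468 genes. The 10 Sst samples include 7 females and the Pvalb group none by label, so the cell types compared also differ in sex. Leaving out any 1 of the high-Xist libraries also ended the call of Psma6 (adjusted p 0.0802 to 0.0857).

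The immunosubunits and activators did not pass between cell types. Psmb8 was at 17.8 ± 6.22 FPKM in Sst and 15.1 ± 2.26 FPKM in Pvalb, Psmb9 at 26.1 ± 11.8 and 16.9 ± 6.16 FPKM and Psmb10 at 13.3 ± 11.1 and 17.1 ± 9.29 FPKM. Psmb5 (0.65), Psmb6 (-0.25), Psmb7 (-0.02), Psme1 (-0.41), Psme2 (0.11), Psme3 (-0.20) and Psme4 (0.28) had log2 fold changes with adjusted p between 0.231 and 0.970. The subtypes' own genes went partly with the labels. Sst was at 12.5 to 30.5 FPKM in the Pvalb samples (median 24.9) and 0.238 to 49.3 FPKM in the numbered Sst samples (median 5.60), so the median was higher in Pvalb. Pvalb was at 0.890 to 5.07 FPKM (median 2.59) and 0 to 1.93 FPKM (median 0), and it was the 1 interneuron marker of 8 tested that was called, lower in Sst. Of the endothelial markers 5 of 6 were called higher in Sst (summed level 22.4 to 114 FPKM against 11.3 to 48.2 FPKM), and of the excitatory neuron markers 2 of 5 tested were lower (43.9 to 237 FPKM against 25.7 to 532 FPKM). The microglia markers summed to 3659 to 9415 FPKM in Sst and 7966 to 9071 FPKM in Pvalb, with 2 of 12 called lower in Sst. Their part in the calls was not tested.

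The kind of title was compared among male Sst controls, 3 dated against 3 numbered samples, since CUS samples have dated titles only. Psmd3 was higher in the dated samples, at 21.1 ± 2.46 against 7.92 ± 1.24 FPKM (SD, n = 3 each, log2 fold change 1.31, SE 0.26, limma adjusted p = 0.0411). Psme2 was lower, at 24.3 ± 4.58 against 82.1 ± 12.2 FPKM (-1.72, SE 0.27, adjusted p = 0.0211). These are 2 of 45 members, 4.44%, beside 4.11% of 14230 genes. Neither group pair overlapped. Without the averaged pair 8 members were called, 4 higher (Psmc3, Psmd3, Psmd4 and Psmd13) and 4 lower (Psmb2, Psmb5, Psmb9 and Psme2), beside 13.7% of 14275 genes, whereas both calls were lost without SST040241L, SST04241LL, SST3-M or SST4-M, and that of Psmd3 also without SS04031R. Psmb5 had the largest log2 fold change of any member, -1.88 (adjusted p = 0.0700), at 14.8, 9.62 and 9.61 FPKM against 29.2, 30.3 and 93.2 FPKM. Psmb6 (0.64), Psmb7 (-0.52), Psmb8 (-0.26), Psmb9 (-1.53), Psmb10 (-0.89), Psme1 (-0.09), Psme3 (-0.71) and Psme4 (-0.29) did not pass.

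The dated samples, stressed or not, stood apart from the numbered samples in part of the members, as they did in part of all genes. Whether this was more frequent among the members than among all genes was not tested. Over all 22 samples, the 6 dated ones did not overlap the 16 numbered ones in 9 of 45 members (20.0%), 6 higher and 3 lower, beside 12.8% of 14566 genes. The higher ones were Psmd4, at 74.8 to 88.8 FPKM against 12.3 to 57.2 FPKM, the scaffold subunits Psmd1 (35.7 to 39.7 against 12.3 to 35.7 FPKM, apart only before rounding) and Psmd2 (26.2 to 31.8 against 13.8 to 25.1 FPKM), the lid subunits Psmd3 (18.3 to 23.5 against 5.71 to 13.4 FPKM) and Psmd7 (36.1 to 39.9 against 13.4 to 34.7 FPKM), and Psmb1 (27.8 to 34.9 against 13.5 to 26.0 FPKM). The lower ones were Psmb3 (10.6 to 15.0 against 16.1 to 63.3 FPKM), Psme2 (13.0 to 29.5 against 40.3 to 96.0 FPKM) and Psme3 (14.0 to 15.7 against 17.5 to 34.4 FPKM). Summed by role, the 11 non-ATPase genes of the 19S cap stood at 343 to 361 FPKM in dated and 202 to 304 FPKM in numbered samples. Psmd4 stood furthest apart among them, with means of 80.9 and 26.4 FPKM. Psmd8, Psmd11, Psmd12 and Psmd14 had lower means in dated samples (20.3, 28.1, 19.1 and 20.3 against 22.9, 29.3, 25.3 and 26.7 FPKM). The other non-ATPase genes had higher ones. The 7 constitutive beta genes stood at 133 to 155 FPKM in dated and 189 to 284 FPKM in numbered samples. Psmb1 and Psmb6 were not low among the beta genes, Psmb6 being at 25.0 to 36.4 FPKM in dated samples and 6.90 to 38.3 FPKM in numbered ones. The kind of title and the date or batch it may stand for cannot be told apart.

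Psme2 has a near-identical copy, Psme2b, and reads shared by them may be split differently between libraries. Psme2b made up 53.7% to 65.8% of the summed FPKM of both in the dated samples and 9.70% to 31.7% in the numbered ones. The sum was 36.4 to 72.8 FPKM and 59.0 to 112 FPKM, so with both genes added the kinds of titles overlapped over all samples. Between cell types the sums overlapped too, at 59.0 to 112 FPKM in numbered Sst and 65.8 to 103 FPKM in Pvalb samples. In the sex, CUS and title comparisons the sums stayed apart. They were 48.5 to 72.8 FPKM in dated and 103 to 112 FPKM in numbered male controls, 36.4 to 39.1 FPKM after CUS and 59.0 to 80.1 FPKM in females. How each gene's own level is shared with its copy remains uncertain.

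**Figure D5:**
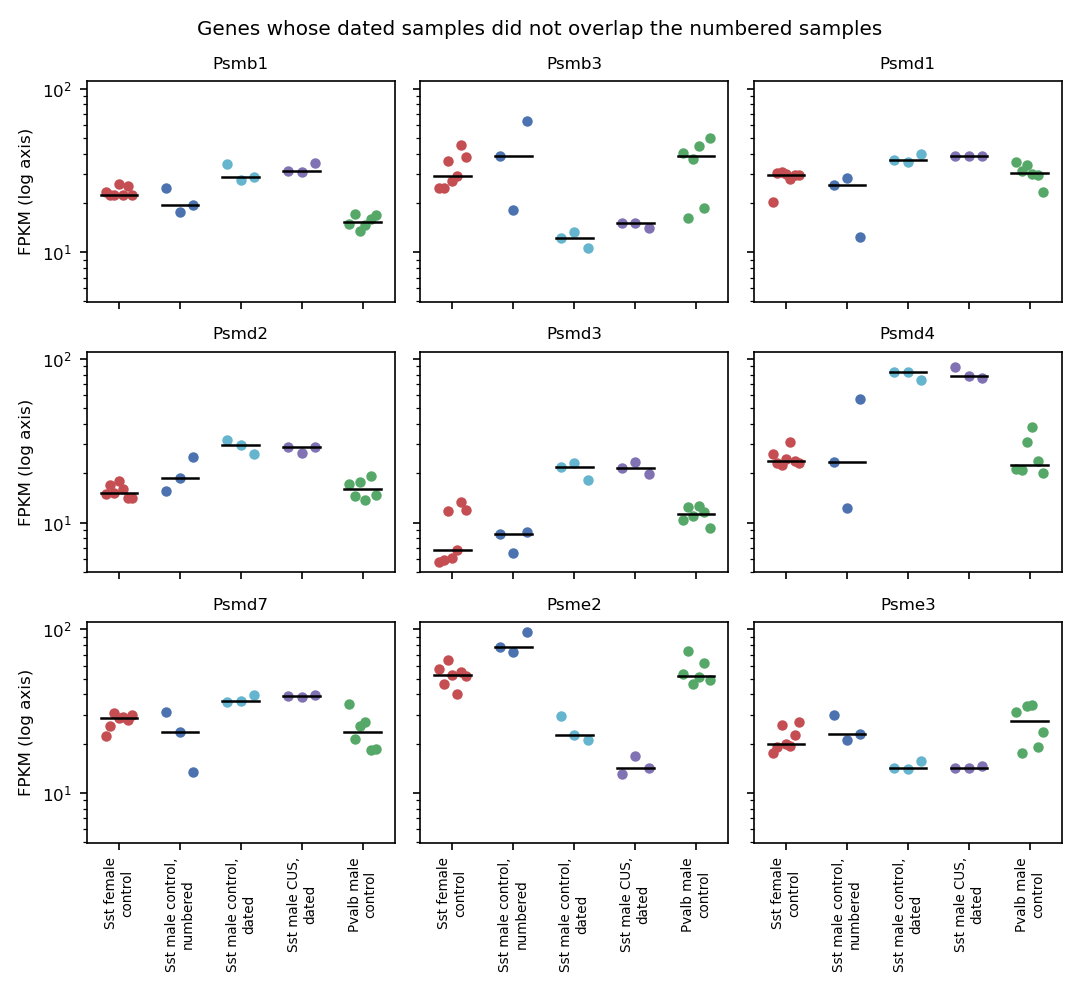
FPKM (log axis) by sample and group of the 9 members whose 6 dated samples (Sst male controls and CUS) did not overlap the 16 numbered samples. Points are samples and bars are group medians. Psmd4 lies above 74 FPKM in the dated samples and Psme2 below 30 FPKM.

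Other genes of the pathway were taken from lists. Of 35 measured genes of proteasome assembly, ubiquitin delivery and regulation, 1 was called by sex, none by CUS, 4 by cell type and 2 by kind of title, or 2.86%, 0%, 11.4% and 5.71% beside 3.41%, 0.00705%, 10.2% and 4.11% of all genes. Ubqln2, a shuttle that carries ubiquitinated proteins to the proteasome, was higher in females than in numbered males (18.4 ± 2.34 against 10.5 ± 0.459 FPKM, adjusted p = 0.0323). It was also higher in dated than in numbered male controls (28.2 ± 2.32 FPKM, log2 fold change 1.34, adjusted p = 0.0272). Females lay below the dated males without overlap (15.8 to 21.5 against 25.5 to 29.5 FPKM), so its sex direction depended on the males used. Shfm1, an intrinsically disordered lid subunit also called Sem1, was at 163 ± 9.05 FPKM in dated and 30.2 ± 21.4 FPKM in numbered male controls (2.62, SE 0.48, adjusted p = 0.0310). It was at 151 to 172 FPKM in all 6 dated samples and at most 86.4 FPKM in the others. Between cell types the small heat shock protein gene Hspb1 (1.86, adjusted p = 0.0168) and Ufd1l, a cofactor of the p97 unfoldase (0.66, adjusted p = 0.0291), were higher in Sst. The shuttle gene Ubqln4 (-0.78, limma adjusted p = 0.00982) was lower. Pomp, the chaperone that matures the core, was not called in any comparison (adjusted p 0.0749 to 0.859). For CUS 1 gene of this list had an unadjusted p under 0.05, Fbxo7, an F-box adaptor that binds the proteasome regulator Psmf1, at 17.0 ± 0.935 against 12.6 ± 1.77 FPKM (limma adjusted p = 0.647).

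Of 21 genes of MHC class I presentation and interferon signaling, 4 were called by sex, all lower in females, and 4 by kind of title, 2 in each direction, while none passed for CUS or cell type. The share was 19% in both, beside 3.41% and 4.11% of all genes. Microglia markers were also lower in females (5 of 12 called, median log2 fold change -0.93), and their part in these calls was not tested. The interferon-gamma receptor genes Ifngr1 (-0.88, adjusted p = 0.0479) and Ifngr2 (-0.87, adjusted p = 0.0453) had the largest falls among the genes called by sex, and Calr and H2-T23 were the others. Genes that were not called, such as Tapbp (-1.05, adjusted p = 0.0980), had larger differences. By CUS, Tap2 (-0.46) and Ifngr1 (-0.63) had unadjusted p under 0.05 and a limma adjusted p of 0.647, and by cell type Ifngr2 (-0.47) and Stat2 (0.49) had limma adjusted p of 0.163 and 0.170. Between kinds of titles Tap2, a chain of the peptide transporter, was at 20.0 ± 3.26 FPKM in dated and 4.58 ± 0.660 FPKM in numbered male controls (1.91, SE 0.28, adjusted p = 0.0180). Calr, a chaperone of the peptide-loading complex, was also higher (1.88, adjusted p = 0.0259). The class I heavy chain genes H2-K1 (-1.60, adjusted p = 0.0469) and H2-D1 (-1.43, adjusted p = 0.0426) were lower. Tap1, between Psmb9 and Psmb8 on the chromosome, was not called (0.60, limma adjusted p = 0.396), nor were Psmb8 (-0.26) and Psmb9 (-1.53). Whether these 4 neighbors changed differently between kinds of titles was not tested.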

How the data were processed

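Gene levels are FPKM as deposited by the authors, in a single table with 23993 genes and 24 libraries. The Methods name HISAT2 on mm10 with StringTie, and mm9 with TopHat2. The submitters' processing notes name TopHat2, Cufflinks, Cuffdiff and mm10. Whether ComBat, named for batch effects, was applied to these values is not stated. Depth is known only relatively: low values lie at whole-read steps, whose ratios gave 0.475 to 2.55 times the median library. No counting interval can be given, and a listed 0 need not mean absence. The members and lists were chosen with earlier results of these data known.

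Near-identical libraries (SD of the log2 ratio under 10% of the next pair's, genes above 5 FPKM) were averaged. Genes with a mean above 0.4 FPKM were tested on log2(FPKM + 1) with limma 3.58.1 in R 4.3.3 (trend, robust, two-sided, Benjamini-Hochberg). The procedure was tested on simulated independent values, with changes larger than those of the members called in the 4 comparisons. Smaller changes were not simulated. Ratios were compared without pseudocount by exact permutation in Python 3.11.15. Positions and promoters are RefSeq's for GRCm38.p6. Named members are the 6 catalytic genes, Psme1 to Psme4, the 4 largest rises and falls among calls (2 for other pathway genes), or the 3 smallest p where none passed. The values of 1 pathway gene called by cell type are not reported here. Psmd4, Psmd14 and other members with non-overlapping values were named after their values were seen.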

Additional observations from a re-analysis of the deposited data

Results flagged for a closer look

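In groups of 4 to 10 samples, a value was marked where its gap to the nearest other value exceeded Dixon's 95% limit. This was so for 7 of 51 groups of named members. The limit marks about 1 in 20 groups of independent, normally distributed values. The male Sst controls pooled dated and numbered samples, and the members share samples, so the count cannot be set against that rate. The averaged pair SST0-M/SST1-M was far above the other male Sst controls for Psma2 (92.5 FPKM, the next 41.0), Psma6 (145 FPKM, the next 58.3), Psmb5 (93.2 FPKM, the next 30.3) and Psmb10 (43.6 FPKM, the next 14.7). SST3-M was highest among them for Psmb7 (57.0 FPKM, the next 33.6) and Psmb9 (49.2 FPKM, the next 18.9). Among female Sst controls, SST-F was highest for Psmb7 (81.2 FPKM, the next 46.3).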

How the results depend on the processing

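The count of called members moved with the samples and the scaling. By sex (1 in the report) it was 0 after quantile normalization and 0 after scaling to a common total without small nucleolar and Cajal body RNA, a scaling that moved the median of all genes to 0.25 and that of the members to -0.06. It was 3 in 1 fit over all samples, 7 with the closest libraries kept separate, 5 with all males, 28 with dated males and 0 to 2 without 1 replicate. By CUS (0) it was 4 against numbered males and 0 elsewhere, beside 2309 and 1 to 16 of all genes. By cell type (4) it was 8 with Sst females only, 0 with Sst males only, 0 without the high-Xist libraries and 13 with only those. It was 12 without both averaged pairs and 3 to 7 without 1 replicate, 7 being without the averaged Sst pair. All genes called numbered 1478 in the report, 3638 with Sst females only and 13 with Sst males only. They numbered 9 without the high-Xist libraries and 3265 with only those. Without both averaged pairs they numbered 4431, and without 1 replicate 554 to 2883. By kind of title (2) it was 1 with no filter, 5 after quantile normalization, 17 in 1 fit over all samples, 5 with near-identical libraries kept separate and 0 to 8 without 1 replicate, where the lone or paired samples left are assumed to vary like the rest. With title number as a replicate block on the samples that share one, 0 members were called by sex and 0 by cell type, and on these samples without the block it was also 0 and 0. Samples with the same number did not deviate together (correlations -0.05 to 0.12), so the numbers were not taken to pair them. Fits that called no member had 6 to 16 members (sex), 1 to 14 (CUS), 4 to 9 (cell type) and 8 to 18 (kind of title) at an unadjusted p under 0.05. Counts of all genes at that p, and of all genes called in most fits by kind of title, are not given here. The cause of these changes was not tested. The fits without both pairs, with only the high-Xist libraries and on shared numbers without the block were added after seeing the data.

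Of the ratios, Psmb8:Psmb5 by sex passed an unadjusted 0.05 with dated males (-1.94), Psmb9:Psmb6 with all males (1.73), dated males (2.90) and without SST3-M (range without 1 replicate -0.10 to 1.28), and Psmb10:Psmb7 with all males (-1.24). Psmb9:Psmb6 passed by CUS against all Sst controls (-2.56), and by cell type with Sst females only (0.92) and without either averaged pair (range 0.64 to 0.96). These were 9 alternative results, and the other 156 did not pass. Without counts, precision at low values cannot be stated, and 3 against 3 samples cannot pass an exact test.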
